A study of Homo sapiens with 17 samples.

Results

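The genes of wild-type (WT) human neurons were sorted by 2 histone marks and set against their RNA. The classes were defined by the deposited WT peak lists: a gene carried H3K27me3 when a peak lay within 2 kb of either end of its span, and H3K36me3 when a peak overlapped its span by at least 1 bp, on GRCh38. Of 60199 gene symbols in the RNA table, 37109 had a position on an autosome or X, and 10693 of those carried a peak of either mark. H3K27me3 alone was found at 3253 genes, H3K36me3 alone at 7006 and both at 434, which left 26416 with neither. Among the positioned genes 19137 were protein-coding, in classes of 2559, 6396, 418 and 9764 (13.4%, 33.4%, 2.2% and 51.0%).

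The cells came from H9, an established human embryonic stem cell line, at passage P40, and were grown through embryoid bodies and neural rosettes into neurons taken at day 40. The WT part of the study is 5 of its 17 samples: 3 polyA RNA libraries, 1 H3K27me3 ChIP library and 1 H3K36me3 ChIP library. The ChIP control is titled input, but its antibody label names normal rabbit IgG. The other samples carry the UTX-/- genotype in the KO1 and KO2 lines, with 5 RNA libraries in all. With 1 ChIP library a mark no peak has a replicate check, and the labels do not say whether the RNA replicates were separate differentiations, so a p-value here covers library-to-library spread, which the labels call neither biological nor technical.

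H3K27me3 is written by Polycomb repressive complex 2 (PRC2), whose catalytic subunits are EZH2 and EZH1, and is known for holding developmental regulators silent at CpG-rich promoters. H3K36me3 is written by SETD2, which travels with elongating RNA polymerase II, and marks the bodies of transcribed genes. UTX, the product of KDM6A, removes methyl groups from H3K27. A ChIP peak averages over all cells in the dish, so 2 marks listed at one gene may come from different cells. Likewise, a mark and the RNA of one gene may come from different cells.

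The windows just before the start of 5 genes are printed here. They were picked for extreme peaks, high RNA or a lack of CG, and are not typical of their classes. No gene with both marks is among them. Each line is the 250 bases before the start, 5′ to 3′ on the gene's strand, from RefSeq on GRCh38.p14, with every CG dinucleotide in capitals. EVX2 (chr2:176083963-176084212, minus strand), a homeobox gene beside the HOXD cluster, lies under the longest H3K27me3 peak. LRRC26 (chr9:137170052-137170301, minus strand), an auxiliary subunit of a potassium channel, had the highest H3K27me3 fold among protein-coding genes of its class with a window. TBR1 (chr2:161416047-161416296, plus strand), a transcription factor of deep-layer cortical neurons, was among the H3K27me3-only genes with the highest CPM. KIF1A (chr2:240821404-240821653, minus strand), a motor that carries synaptic vesicle precursors along axons, had the most bases under H3K36me3 peaks. OR10A4 (chr11:6876375-6876624, plus strand), an olfactory receptor, had neither mark, was listed at 0 CPM and was picked for a window without CG.
EVX2: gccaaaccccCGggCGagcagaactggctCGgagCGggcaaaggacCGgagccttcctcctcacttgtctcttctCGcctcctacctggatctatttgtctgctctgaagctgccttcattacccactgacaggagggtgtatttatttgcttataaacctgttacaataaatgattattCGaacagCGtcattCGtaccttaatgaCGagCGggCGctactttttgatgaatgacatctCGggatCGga
LRRC26: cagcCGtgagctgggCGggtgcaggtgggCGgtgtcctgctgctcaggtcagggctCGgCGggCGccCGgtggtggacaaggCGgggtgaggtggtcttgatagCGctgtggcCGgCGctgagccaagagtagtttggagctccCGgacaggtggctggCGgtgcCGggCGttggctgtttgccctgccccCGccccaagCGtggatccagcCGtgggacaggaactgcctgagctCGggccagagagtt
TBR1: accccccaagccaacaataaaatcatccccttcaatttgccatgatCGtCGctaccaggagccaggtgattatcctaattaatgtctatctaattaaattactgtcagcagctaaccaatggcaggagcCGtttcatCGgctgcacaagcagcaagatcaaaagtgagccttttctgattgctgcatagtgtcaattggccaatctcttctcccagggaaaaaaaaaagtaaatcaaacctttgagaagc
KIF1A: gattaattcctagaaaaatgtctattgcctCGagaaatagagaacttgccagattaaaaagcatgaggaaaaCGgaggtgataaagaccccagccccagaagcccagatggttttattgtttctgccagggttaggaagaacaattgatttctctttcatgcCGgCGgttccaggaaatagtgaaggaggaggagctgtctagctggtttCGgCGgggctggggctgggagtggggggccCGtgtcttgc
OR10A4: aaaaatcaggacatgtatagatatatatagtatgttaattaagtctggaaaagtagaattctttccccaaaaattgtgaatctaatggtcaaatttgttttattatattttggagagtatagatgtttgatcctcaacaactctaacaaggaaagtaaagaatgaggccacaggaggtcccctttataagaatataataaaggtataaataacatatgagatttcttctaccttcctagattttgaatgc
All 250 bases of the EVX2, LRRC26 and TBR1 windows lay under an H3K27me3 peak, and none of the KIF1A or OR10A4 windows did. No H3K36me3 peak touched any of the 5. The EVX2 window held 14 CG, LRRC26 19, TBR1 4, KIF1A 7 and OR10A4 0. Of 253 olfactory receptors with a window, neither mark and 0 CPM, 52 (20.6%) had no CG in the 300-base window that runs 50 bases past the start, against 2.3% of all 18303 windows.

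RNA levels are CPM, each gene's counts per mega-count of its library, scaled by TMM over the 8 RNA libraries. They are not divided by transcript length, so they compare a gene across libraries and classes of genes in bulk, not one gene with another. The WT libraries held 23.9 M, 27.8 M and 17.4 M estimated counts (M, mega). All 12 neuron markers passed 1 CPM, with TUBB3, a neuronal tubulin, at 969, 1147 and 967 CPM in WT replicates 1, 2 and 3. The dishes also held RNA of dividing progenitors: NES was at 777, 796 and 741 CPM and MKI67, a cell cycle marker, at 382, 355 and 410. The 5 astrocyte markers summed to 141, 297 and 201 CPM, of which SLC1A3, also known from radial glia, held 127, 290 and 199, while GFAP was at 4.74, 0.685 and 0.161. The 5 pluripotency markers summed to 46.8, 45.4 and 80.5 CPM, of which DNMT3B held 46.1, 42.6 and 60.6, while NANOG was at 0.0405, 0 and 0.0536. The summed CPM of 7 mesenchyme markers was 508, 42.7 and 1525, and that of 12 neuron markers 3698, 5523 and 3766, so replicate 3 held the most mesenchyme RNA and replicate 2 the least. In bulk RNA, fewer cells of a type and less RNA per cell cannot be told apart.

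The H3K27me3 list held 10340 peaks over 14.609 Mb, with a median length of 619 bp and a longest of 38291 bp. The H3K36me3 list held 30144 shorter peaks over 14.508 Mb, with a median of 382 bp and a longest of 5984 bp. The 2 treatment libraries had similar depth, 22.4 M and 22.5 M tags, against 23 M in the control. Of the H3K27me3 peaks 47.5% lay near a gene end, and of the H3K36me3 peaks 97.2% overlapped a gene span. Length, pileup and fold over control are the authors' own values for each peak.

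Genes with H3K27me3 alone held little RNA and genes with H3K36me3 alone held much. Over protein-coding genes the median was 1.78, 1.44 and 1.82 CPM in the 3 WT libraries for H3K27me3 alone (1.68 ± 0.21, SD of library medians, n = 3), and 55.4, 55.3 and 55.8 CPM for H3K36me3 alone (55.5 ± 0.287). The library medians of the 2 classes did not overlap. Genes with both marks had medians of 43.6, 43.3 and 41.6 CPM, much nearer to the H3K36me3 class, and 95% of them reached 1 CPM. Genes with neither mark had medians of 2.02, 1.61 and 1.82 CPM, which overlap those of the H3K27me3 class. The classes were set against RNA by the rule that defines them here, so these levels are given as a description and carry no test.

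H3K27me3 was more common at genes with low RNA levels than at genes listed at 0 CPM. The mark lay at 8.0% of the 2223 protein-coding genes listed at 0 CPM, at 31.9% of those from 0.1 to 1 CPM, at 32.7% of those from 1 to 10 CPM, and at 5.8% of those over 100 CPM. Of the genes at 0 CPM 91.4% had neither mark. H3K36me3 lay at 0.7% of the genes at 0 CPM and at 84.9% of the 2194 genes over 100 CPM, with its steepest step between 1 to 10 CPM (11.5%) and 10 to 100 CPM (53.8%).

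**Figure D1:**
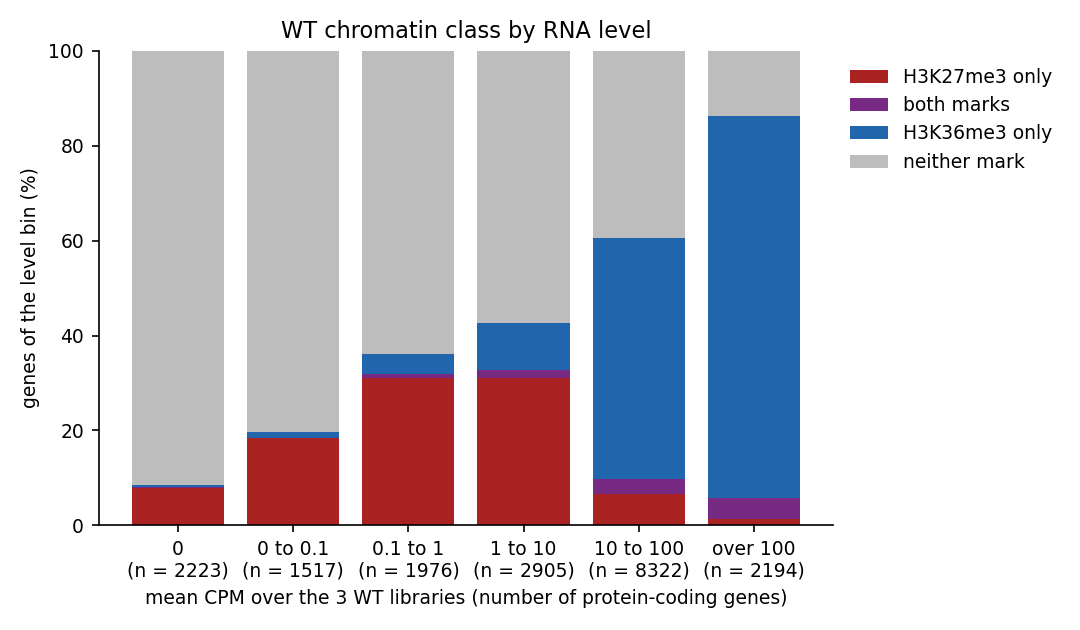
Share of protein-coding genes in each chromatin class (vertical axis, percent of the bin) by mean CPM over the 3 WT libraries (horizontal axis, with the number of genes). H3K27me3 alone is most common from 0.1 to 10 CPM, at about 31% of genes, and H3K36me3 alone reaches 80.4% over 100 CPM.

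The place of the class with neither mark differed with gene length. In the shortest quartile of gene spans (171 to 9263 bp) the median was 0.666 CPM with H3K27me3 alone, 38.8 CPM with H3K36me3 alone and 0.0585 CPM with neither. In the longest quartile (67704 bp and above) the same medians were 5.79, 75.5 and 12.6 CPM. H3K36me3-only genes were highest in every quartile, whereas genes with neither mark lay below the H3K27me3-only genes in the shortest and above them in the longest.

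Longer and taller H3K27me3 peaks went with less RNA. Genes with both marks are counted here beside those with H3K27me3 alone. Protein-coding genes whose longest peak was at most 500 bp had library medians of 7.23, 6.32 and 6.94 CPM, and those with a peak over 10000 bp had 0.385, 0.377 and 1.12 CPM. The share reaching 1 CPM fell by bin from 73.4% to 46.6%. By fold over control the medians were 7.25, 5.82 and 6.43 CPM at up to 5-fold and 0.607, 0.925 and 1.29 CPM over 16-fold. Across 2977 genes Spearman's rho with mean CPM was -0.18 for length and -0.20 for fold, so most of the variation in RNA lay within bins, and genes with long peaks were also shorter (rho of length with gene span -0.24). Genes are not independent replicates, and no p is given.

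H3K36me3 ran the other way, again with genes of both marks counted. Genes with at most 500 bases under peaks had library medians of 34.3, 33.5 and 33.3 CPM, and the 161 genes with over 10000 bases had 216, 218 and 209 CPM. By fold the medians were 35.8, 34.4 and 35.3 CPM at up to 4-fold and 134, 129 and 133 CPM over 8-fold. Across 6814 genes rho with mean CPM was 0.41 for bases and 0.32 for fold. The bases under peaks were only weakly tied to the gene span (rho 0.11), and fold had a rho of -0.004. As a percent of the span, coverage had a rho of 0.17 with mean CPM and of -0.69 with the span itself.

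**Figure D2:**
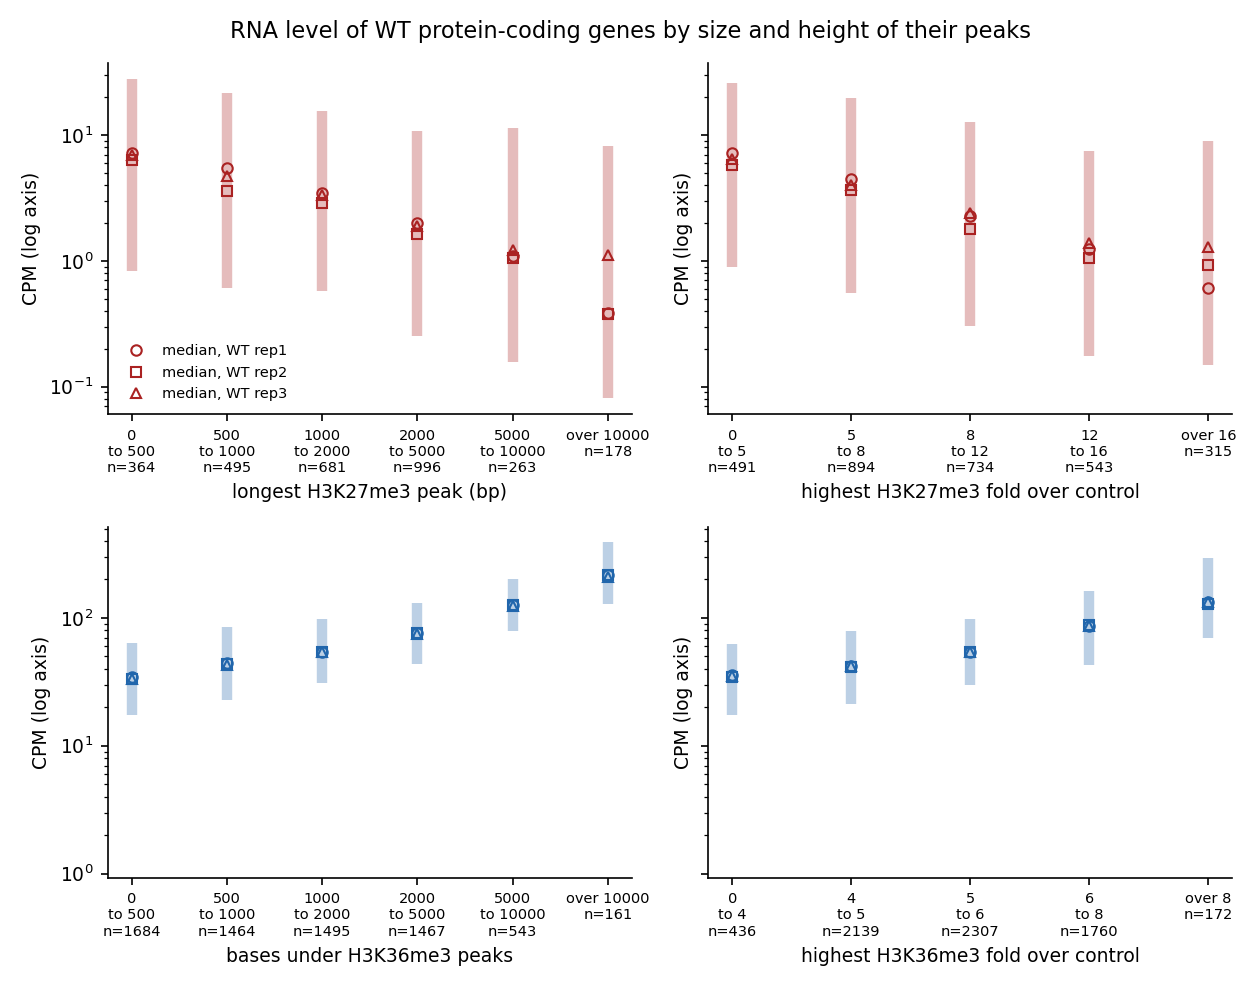
CPM of protein-coding genes (log axes) by the length and fold of their H3K27me3 peaks (top) and by the bases and fold of their H3K36me3 peaks (bottom). Genes with both marks are counted in the top and the bottom panels. Symbols are the medians of the 3 WT libraries, bars run from the lower to the upper quartile of mean CPM, and n is the number of genes: medians fall from about 7 CPM with H3K27me3 length and rise to over 200 CPM with H3K36me3 bases.

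The place of the peak was read from the strand of the RefSeq start, which 15333 protein-coding genes have. An H3K27me3 peak within 2 kb of the start was found at 1999 genes, with medians of 2.63, 2.26 and 2.68 CPM. Their start can lie inside the span, so 114 of them had no H3K27me3 peak at a span end and count elsewhere as H3K36me3 alone (17) or neither (97). A further 96 genes had it at the upstream edge of their span but away from that start, with a median of 12.5 CPM, and 216 had it near the far end only, with a median of 8.96 CPM. At the start, the 218 genes that also had H3K36me3 had a median of 37.2 CPM and the 1781 without it 2.05 CPM. At the far end these medians were 52.2 CPM (77 genes) and 1.25 CPM (139 genes), so the split by H3K36me3 was present at both places. Of the 216 far-end genes 155 shared an assigned H3K27me3 peak with another gene, against 525 of the 1999 genes at the start. Among the 77 far-end genes with H3K36me3, 69 did. Levels also differed by distance: the median was 1.42 CPM where the peak overlapped a gene end, 7.82 CPM up to 1 kb away, 14.5 CPM from 1 to 2 kb, just inside the window, and 13.9 CPM from 2 to 3 kb, just outside it.

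The longest domains covered the HOX clusters, whose homeobox factors set position along the body axis. All 39 HOX genes had H3K27me3 alone, with a median longest peak of 17382 bp. HOXD10 to HOXD13 and EVX2 shared a single peak of 38291 bp (chr2:176077054-176115344), and HOXC8, HOXC9 and HOXC10 with HOXC-AS1, HOXC-AS2 and HOXC-AS3 shared one of 30721 bp (chr12:53980662-54011382). In the HOXD domain EVX2 was at 0.081, 0.651 and 1.02 CPM and HOXD13 at 0, 0.171 and 0. HOXD10, HOXD11 and HOXD12 were listed at 0 in all 3 libraries. RNA of 16 HOX genes nevertheless reached a mean of 1 CPM, namely HOXA2 to HOXA5, HOXB2 to HOXB9, HOXC4, HOXC5, HOXD3 and HOXD4. Genes of the 3′ part of a cluster are used further forward in the body than those of the 5′ part.

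Several of those HOX genes differed widely between WT libraries, whereas HOXA5 was at 2.47, 1.68 and 2.41 CPM. HOXB3, a hindbrain gene, was at 59.8, 139 and 171 CPM. HOXB8, used further caudally, was at 0.445, 47.0 and 3.75 CPM. HOXC4 was at 2.31, 21.1 and 29.0 CPM and HOXD4 at 1.09, 4.52 and 20.2. Replicate 1 was lowest for HOXB3, HOXB8, HOXC4 and HOXD4, while HOXB8 was highest in replicate 2 and the others in replicate 3. HOXA2 to HOXA5 were lowest in replicate 2. The single ChIP library cannot be tied to any of the 3 RNA libraries.

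All 24 transcription factors of midbrain, hindbrain and spinal cord also had H3K27me3 alone, with a median longest peak of 13268 bp. Their RNA was low, with a median of 1.45 CPM and a highest value of 15.1 CPM in PAX2, a midbrain-hindbrain boundary factor at 4.33, 15.2 and 25.9 CPM. EN1, which patterns the same boundary, was at 0.121, 0.103 and 1.5 CPM under a peak of 21227 bp. GATA3, a factor of ventral spinal interneurons, was at 0, 0.685 and 0.536 CPM with a peak of 30229 bp. Of 39 positioned regulators of non-neural lineages 29 had H3K27me3 alone and 10 neither mark, though RUNX1 of those 10 had a peak near a start inside its span. TBXT for mesoderm, SOX17 for endoderm and MYOD1 for muscle were all marked and listed at 0. HAND2, a heart and limb factor, lay under a peak of 30056 bp at 0.081, 0.0342 and 0 CPM. MYF5, the partner of MYOD1 in muscle, was listed at 0 with neither mark.

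Transcription factors of the forebrain, with a median of 56.5 CPM against 0.125 CPM for the HOX genes, split among the classes. Of 21, 11 had H3K27me3 alone, 4 H3K36me3 alone and 6 both, and none had neither. LHX2, a cortical selector gene, was at 471, 361 and 221 CPM with H3K36me3 alone, and EMX2 and NR2F1 were also in that class. Those with both marks included BCL11B, FEZF2, NR2F2, OTX1 and OTX2. FEZF2, which specifies corticospinal neurons, was at 227, 107 and 60.5 CPM, and NR2F2, a factor of caudal ganglionic interneurons, at 35.9, 93.6 and 144. Across the libraries these 2 ran in opposite order.

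H3K27me3-only forebrain factors were nonetheless transcribed, except NKX2-1, which was listed at 0 under a peak of 15622 bp. TBR1 was at 273, 239 and 98.6 CPM with a longest peak of 6441 bp and H3K27me3 over the start window printed above. DLX1 and DLX2, factors of inhibitory neurons that share a peak of 23577 bp, were at 3.36, 59.9 and 43.4 CPM and at 3.56, 42.2 and 44.7 CPM. SLC32A1, the vesicular GABA transporter of the same neurons, was at 1.54, 18.3 and 15.3 CPM with a peak of 10189 bp. In replicate 1 all 3 inhibitory genes were more than 5-fold below the other libraries. EMX1, a gene of excitatory cortical lineage with a peak of 11945 bp, ran the other way at 80.6, 39.1 and 13.1 CPM.

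The 6 H3K27me3-only genes with the highest CPM were STMN2, SOX3, RELN, L1CAM, TBR1 and COL1A1. STMN2, a neuronal microtubule regulator, was at 282, 530 and 348 CPM, with a peak of 3226 bp at one end of the gene. SOX3, a progenitor factor, was at 308, 328 and 447 CPM, with a peak of 711 bp beside its start. RELN, secreted by Cajal-Retzius cells, was at 563, 253 and 90.9 CPM, with 1407 bp over the start. L1CAM, an axonal adhesion molecule, was at 187, 277 and 205 CPM, with 886 bp at the upstream edge of its span. COL1A1, a collagen chain of mesenchyme, was at 126, 7.64 and 387 CPM with a peak of 2106 bp at one end of its span, and is itself 1 of the 7 mesenchyme markers summed above. Only SOX3, STMN2 and L1CAM of the 6 kept within 2-fold over the 3 libraries.

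**Figure D3:**
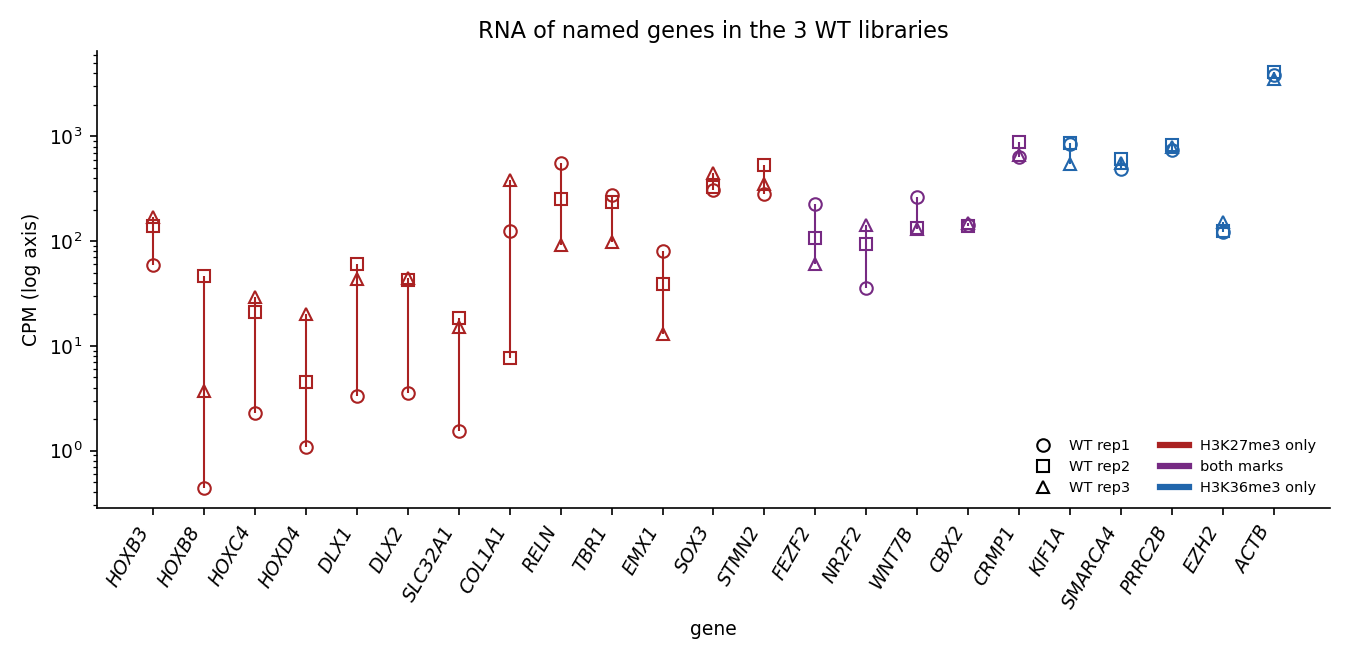
CPM (log axis) of 23 genes in the 3 WT libraries, with a symbol for each library, a line from lowest to highest, and colour by chromatin class. H3K27me3-only HOX, DLX and collagen genes span 10-fold or more in several cases (HOXB8 0.445 to 47.0), whereas H3K36me3-only genes such as EZH2 (121 to 153) lie close together.

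This wide spread held over the class and not just for the named genes. At 10 to 100 CPM the median SD of log2 CPM over the 3 libraries was 0.49 for 561 genes with H3K27me3 alone, 0.14 for 4227 with H3K36me3 alone, 0.21 for 252 with both and 0.19 for 3282 with neither. A range of 4-fold or more was seen in 15.5%, 0.2%, 1.6% and 1.2% of them. Over 100 CPM the median SD was 0.42 for 29 genes with H3K27me3 alone and 0.14 for 1764 with H3K36me3 alone. The lowest library varied: at 10 to 100 CPM replicates 1, 2 and 3 were the lowest for 181, 155 and 225 of the H3K27me3-only genes. The summed mesenchyme markers moved between the same libraries, and their part in this spread was not tested.

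**Figure D4:**
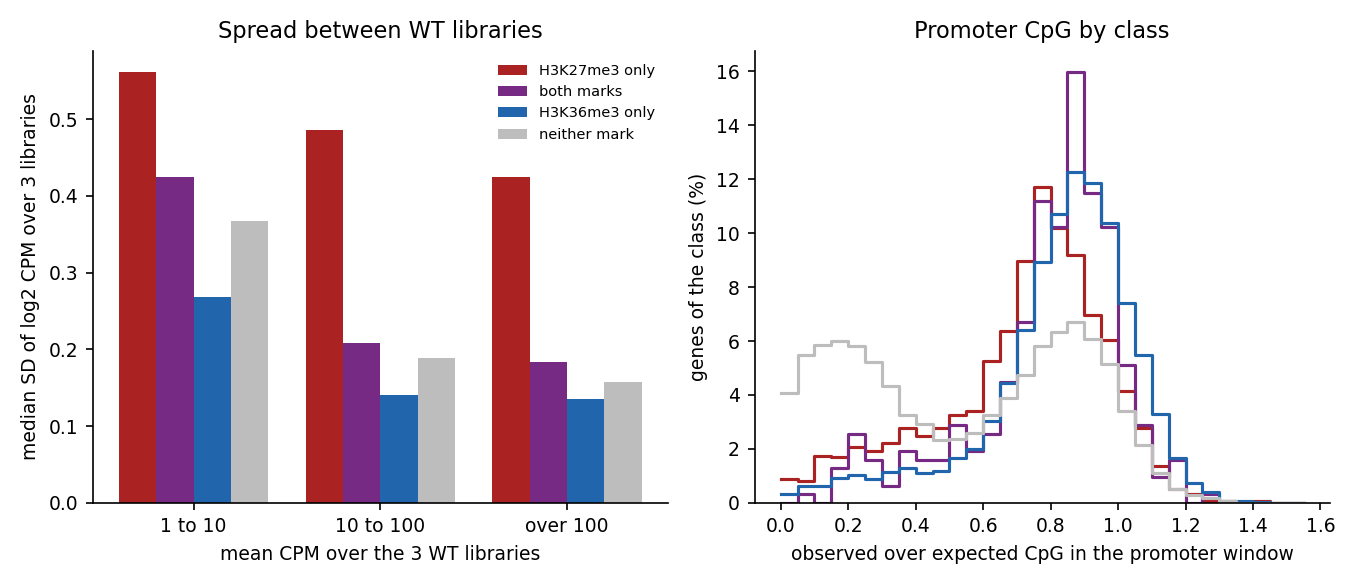
Left, median SD of log2 CPM over the 3 WT libraries (vertical axis) by RNA level and class, with H3K27me3 alone highest in each level bin (0.56, 0.49 and 0.42). Right, percent of the protein-coding genes of each class (vertical axis) by observed over expected CpG in the 300-base promoter window: genes with neither mark form 2 humps and the marked classes mainly the upper one.

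Genes for neuronal signalling fell in all 4 classes. Of 26 glutamate and GABA-A receptor subunits 16 had H3K27me3 alone, 8 neither, 1 H3K36me3 alone (GRIN2B) and 1 both (GRIK5), while 25 reached 1 CPM. GRIN1, the obligatory NMDA receptor subunit, was at 11.3, 12.6 and 6.05 CPM with a peak of 10387 bp and 24.3-fold, the highest fold of the list. The LRRC26 window printed above lies inside this GRIN1 peak. GRIA2, which sets the calcium block of AMPA receptors, was at 90.2, 119 and 91.6 CPM with only 443 bp. Of 31 potassium, sodium and calcium channels 16 had H3K27me3 alone, 4 H3K36me3 alone, 1 both and 10 neither, and all 31 reached 1 CPM. CACNA1C, with H3K36me3 alone, also had an H3K27me3 peak near a start inside its span. Of 26 synaptic vesicle genes 7 had H3K27me3 alone, 7 H3K36me3 alone, 1 both and 11 neither. In that order the vesicle shares were 26.9%, 26.9%, 3.8% and 42.3%. All protein-coding genes stood at 13.4%, 33.4%, 2.2% and 51.0%, so only the H3K27me3-only share of the vesicle genes was far from theirs. SLC17A7, the glutamate transporter of mature cortical vesicles, was at 27.7, 10.0 and 8.68 CPM, and H3K27me3 lay over its start. Its longest peak, of 10847 bp, reached only the edge of its span.

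Ligands and antagonists of patterning pathways mostly carried H3K27me3. Of 30 WNT, BMP, FGF and SHH pathway genes 24 had H3K27me3 alone, 2 both and 4 neither, though WNT5A of those 4 had a peak over a start inside its span. SHH, the ventralizing signal, was at 0.405, 0.445 and 1.66 CPM with a peak of 13440 bp, and WNT1 and WNT10B shared a peak of 15637 bp. WNT8B, expressed at the cortical hem, was at 51.8, 27.5 and 12.3 CPM with a peak of 2506 bp near its far end only. WNT7B and BMP7 carried both marks, WNT7B at 264, 134 and 132 CPM.

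Genes of the chromatin machinery were mostly in the transcribed class. The list of H3K27 and H3K36 enzymes also held KMT2A, KMT2B, KMT2C and KMT2D, which methylate H3K4 and all had H3K36me3 alone. Of its 19 positioned members 17 had H3K36me3 alone and the other 2, KDM4C and KDM6A, neither mark. SETD2 was at 143, 145 and 132 CPM and NSD2, which writes H3K36me2, at 439, 440 and 471. Of 28 Polycomb subunits 20 had H3K36me3 alone, among them the PRC2 core of EZH2 (121, 126 and 153 CPM), SUZ12 (80.4, 75.4 and 82.2) and EED (22.3, 24.8 and 23.9). By the rule on span ends H3K27me3 lay at 7 of them, and PCGF5, the gene with neither mark, had a peak near a start inside its span. BMI1, CBX7 and EPOP had it alone, and CBX2, CBX8 and PCGF1 were among those that had it with H3K36me3. CBX proteins read H3K27me3 and BMI1 and PCGF1 belong to PRC1. EPOP, a PRC2 accessory factor, had the highest fold of the class at 27.2 and yet 11.6, 9.21 and 7.87 CPM.

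**Figure D5:**
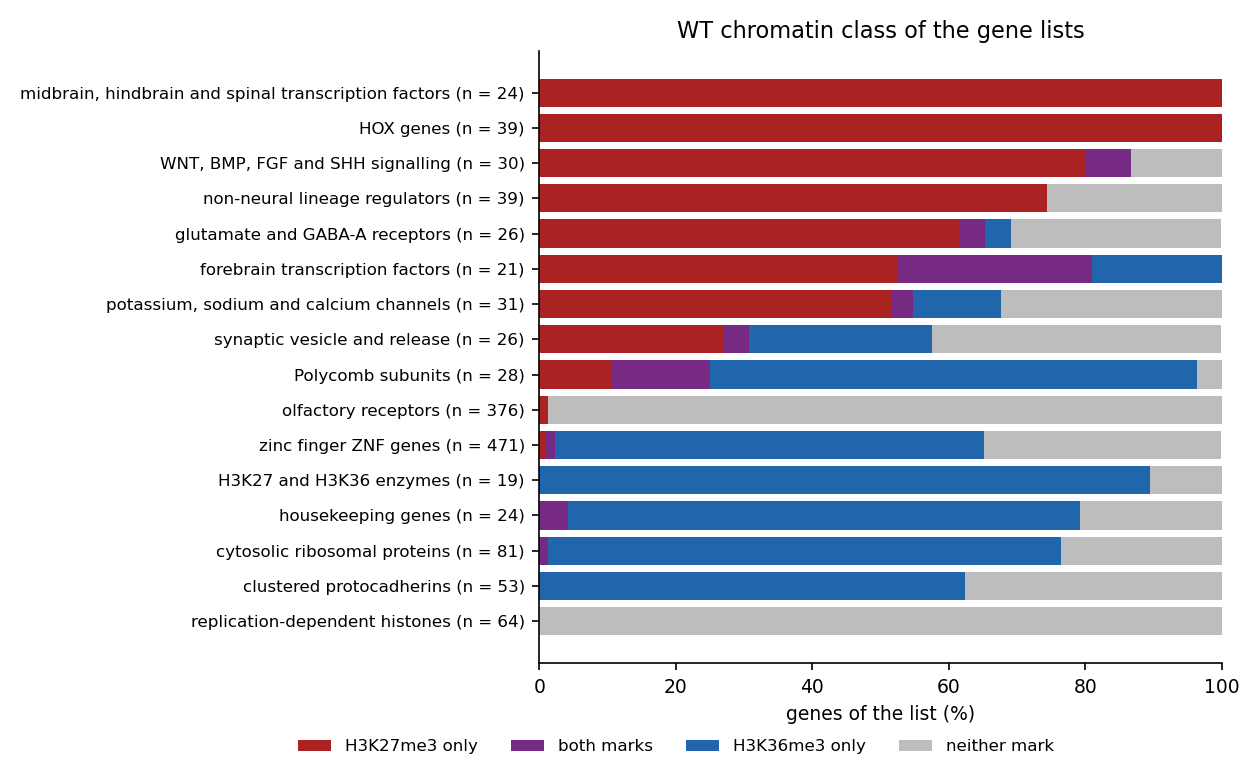
Share of each gene list (horizontal axis, percent, with the number of positioned members) in the 4 chromatin classes. HOX and caudal transcription factors are wholly H3K27me3-only, and replication-dependent histones have neither mark. The list labelled H3K27 and H3K36 enzymes, which also holds the H3K4 enzymes KMT2A to KMT2D, is 89.5% H3K36me3-only.

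Among H3K36me3-only genes KIF1A had the most bases under peaks, with 63 peaks over 48585 bases, 45.1% of its span, at 843, 871 and 539 CPM. PRRC2B, ZMIZ1, TNRC18, SMARCA4, PTPRS and TRRAP followed with 25965 to 36780 bases. SMARCA4, the BRG1 chromatin remodelling ATPase, was at 488, 604 and 556 CPM, and TRRAP, a scaffold of acetyltransferase complexes, at 200, 238 and 234. The class members with the highest CPM were ACTG1, ACTB, TUBA1A, TUBB, EEF2 and HNRNPA1, with TUBA1A at 3869, 4318 and 3244 CPM and only 436 bases under peaks. Housekeeping genes fell in this class in 18 of 24 cases and cytosolic ribosomal protein genes in 61 of 81.

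H3K36me3 also lay in gene families with modest RNA. Of 471 zinc finger ZNF genes 296 had H3K36me3 alone, with a median of 22.8 CPM, and 4 had H3K27me3 alone. Those shares were 62.8% and 0.8%, against 33.4% and 13.4% of protein-coding genes. Of 53 clustered protocadherins, adhesion molecules that give neurons single-cell identity, 33 had H3K36me3 alone at a median of 2.07 CPM. Those 33 spans overlap on chromosome 5 and hold only 16 distinct peaks, each gene sharing at least 1 with another, so they are not 33 separate observations. At the other extreme 14 protein-coding members of the class were listed at 0 CPM. ANGPTL7, for one, had 3 peaks over 1359 bases, and ABHD16B 2 peaks over 488 bases. A peak is assigned to every gene whose span it touches, and 1753 of the H3K36me3 peaks were assigned to 2 or more genes.

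Genes with both marks seldom had them in the same place. The peaks overlapped in 9 of 434 genes, and the median gap was 13942 bp, with 253 genes over 10000 bp. The 9 included CYP26C1, FEZF2, NOXO1, PCGF1, SEPTIN5, SP8, URM1 and ZFP36L2, named here after their values were seen. In 171 genes (39.4%) the H3K27me3 peak was also assigned to an H3K27me3-only gene. Of the H3K27me3-only genes 37.7% shared a peak with some other gene. The far end of DDX31, an RNA helicase at 11.7, 15.3 and 19.3 CPM, lay beside the 15245-bp peak of BARHL1, a cerebellar homeobox gene at 0.283, 0.0342 and 1.12. QSOX2 was at 58.2, 57.9 and 68.7 CPM beside the 15346-bp peak of LHX3, which was at 0.162, 0.0342 and 0.214. SREBF2, a regulator of sterol synthesis at 540, 514 and 551 CPM, and LRP1, a lipoprotein receptor at 446, 408 and 458, likewise had their H3K27me3 peak at the far end.

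Some strongly transcribed members of this class had H3K27me3 at their own start. EEF1A1, a translation factor, had the highest CPM of the class at 9589, 8299 and 7874 CPM, with 1173 bp of H3K27me3 over its start at 10.4-fold and a single H3K36me3 peak of 269 bases. CRMP1, an axon guidance mediator, was at 639, 882 and 669 CPM with 1500 bp near the start and 10206 bases of H3K36me3. EEF1A1 has many near-identical pseudogenes, so both its counts and its peaks are uncertain.

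Strong transcription without a peak of either mark was also seen. TMSB4X, an actin-binding peptide, was at 2489, 2585 and 2216 CPM, and DCX, which stabilizes microtubules in migrating neurons, at 758, 1320 and 895. NNAT, RPL7, HMGB1, PEG10, NUCKS1 and YWHAQ followed at means of 695 to 987 CPM. All 64 replication-dependent histone genes had neither mark, with a median of 0.179 CPM, and their messages are known to lack a polyA tail. Of 376 olfactory receptor genes 371 had neither mark, and 311 of the 376 were listed at 0.

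Among genes below 1 CPM, CpG-rich promoters were more common with H3K27me3 alone than with neither mark. A 300-base window around the start was called CpG-rich when its GC content was at least 50% and its observed over expected CpG at least 0.6. This held for 70.2% of 2207 H3K27me3-only windows (Wilson 95% interval 68.2 to 72.1, counting error only), 83.8% of 5562 with H3K36me3 alone, 82.9% of 322 with both and 41.5% of 10212 with neither, against 58.5% of all windows. Below 1 CPM it held for 61.6% with H3K27me3 alone (58.6 to 64.5) and 14.6% with neither (13.7 to 15.5). From 1 CPM up the 2 classes were close, at 77.8% and 72.9%. Over protein-coding genes with H3K27me3, with or without H3K36me3, it held for 68.0% with a longest peak up to 500 bp, 69.4% to 1000, 76.9% to 2000, 74.1% to 5000, 80.1% to 10000 and 85.0% over 10000 bp. TATAAA, searched on both strands, was in 8.6% of H3K27me3-only windows, 4.8% with H3K36me3 alone, 4.3% with both, 13.7% with neither and 10.2% of all. A match is a description of letters and not of a bound factor.

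The WT classes were last compared with the UTX-/- cells. In the tests the KO1 and KO2 libraries were pooled as KO with no term for line, so libraries of a line counted as replicates. The 3 WT libraries held KDM6A RNA at 36, 35.9 and 35.1 CPM, the KO1 libraries at 40.7, 30.0 and 34.0 CPM and the KO2 libraries at 25.9 and 33.9 CPM. The groups overlap, so the level of this gene does not check the genotype. Genes with H3K27me3 alone in WT had medians of 1.78, 1.44 and 1.82 CPM in the WT libraries. Their medians were 2.22, 2.24 and 1.53 CPM in the KO1 libraries and 3.35 and 2.72 CPM in the KO2 libraries. KO1 replicate 3 lay within the WT range and the other 4 KO libraries above it. Medians of the genes with neither mark also rose in part. They were 2.02, 1.61 and 1.82 CPM in WT, 2.32, 1.96 and 1.94 CPM in KO1, and 2.82 and 2.33 CPM in KO2. With edgeR's quasi-likelihood test 0 of 2064 H3K27me3-only members passed an FDR of 0.05, as did 0% of all 18614 genes tested. In the same test 3337 genes had an unadjusted p under 0.05.

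DESeq2, the other tool run, called 1243 of 20745 genes at an adjusted p of 0.05, with 4.83% higher and 1.16% lower in KO. Of 2248 H3K27me3-only members 342 were higher (15.2%) and 39 lower (1.73%). Of 6601 H3K36me3-only members 133 were higher (2.01%) and 70 lower (1.06%), and of 427 with both 32 were higher (7.49%) and 12 lower (2.81%). Of 7873 genes with neither mark 438 were higher (5.56%) and 91 lower (1.16%). COL1A1 was at 27514 CPM in KO1 replicate 2 and at 9210 and 14439 CPM in KO2, against 278 and 258 CPM in the other KO1 libraries. Those 3 libraries, chosen for high collagen RNA, include the whole KO2 line, and COL1A1 is itself an H3K27me3-only gene. A DESeq2 fit without them held KO1 replicates 1 and 3 against WT and left 0.877% of all genes higher and 0.55% lower. In that fit 52 of 1969 H3K27me3-only members were higher (2.64%) and 28 lower (1.42%), and their median log2 fold change was 0.02 against 0.42 with all libraries. KDR, a VEGF receptor with H3K27me3 alone, was among the members higher in KO (log2 fold change 4.47, DESeq2 adjusted p 4.16e-06 over all libraries). The part of other cell types in these calls was not tested. The fit without the 3 libraries also has fewer samples and no KO2 library, so line and collagen level cannot be told apart in it.

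For each mark the descriptions of the KO1 and KO2 ChIP samples both name the same deposited KO peak list. Whether the alignment behind each list holds KO1, KO2 or both is not stated in the labels or headers. These lists kept the H3K27me3 classes more fully than the H3K36me3 classes. An H3K27me3 peak by the same rule was listed for 89.4% of the WT H3K27me3-only genes and 84.6% of those with both. It was listed for 2.2% of the WT H3K36me3-only genes and 1.7% of those with neither. An H3K36me3 peak was listed for 47.4% of the WT H3K36me3-only genes and 31.1% of those with both. It was listed for 0.7% of the WT H3K27me3-only genes and 1.6% of those with neither. The KO H3K27me3 list held 10950 peaks over 16.679 Mb, from 37.6 M tags against 22.4 M in WT. Its fragment size was 287 bp against 290 bp in WT. The KO H3K36me3 list held 8937 peaks over 2.641 Mb, from 44.3 M tags and a fragment size of 200 bp against 269 bp in WT. Depth therefore moved with genotype for both marks, and the fragment setting mainly for H3K36me3. The part of depth and fragment setting was not tested, and with 1 list each no test of these shares was made.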

How the data were processed

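The members and gene lists were chosen with earlier results of these data known. RNA comes as estimated counts by gene symbol, deposited without normalization; Salmon 1.1.0 and GRCh38 are named in the submitters' processing notes, with no annotation given in the sources used here. Peaks are MACS2 2.2.7.1 narrow peaks with a q cutoff of 0.01, each list made with 1 ChIP and 1 control file and duplicate tags dropped, per the file headers; Bowtie2 2.4.1 is named in the submitters' processing notes. Each deposited peak has a pileup signal, a fold ratio over control and a -log10 q-value. Narrow calling breaks broad H3K36me3 into short peaks and can miss weak stretches.

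Here, peaks were assigned to genes placed by symbol (36378) or synonym (731) on RefSeq GRCh38.p14; these 37109 genes held 95.1% of the WT CPM. Start and strand came from the RefSeq promoter table. Counts were rounded and scaled by TMM, with a prior count of 2 for log2 values. KO against WT used edgeR 4.0.16 (filterByExpr, quasi-likelihood, FDR 0.05, R 4.3.3), with DESeq2 1.42.0 beside it. Both pooled KO1 and KO2 as KO, without a term for line. Genes named were the longest, highest-fold, most-covered or most and least abundant of each class by fixed numbers, and list members. The assignment was tested on simulated peaks. Alternatives were other windows, peak thresholds, gene sets, scalings, prior counts and left-out libraries; leaving out 3 high-collagen KO libraries was added after seeing the data. Y-linked genes were not used, some genes that the naming rule picks are not reported here, and the KO ChIP data entered only through the 2 KO lists.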

Additional observations from a re-analysis of the deposited data

How the results depend on the processing

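Class sizes depended on the definition. H3K27me3-only genes numbered 2069 with the start site alone and 2064 among genes that pass filterByExpr, against 3253. H3K36me3-only genes numbered 4361 with peaks of 5-fold or more, 3782 with peaks of 500 bp or more and 2182 with at least 10% of the span covered, against 7006. Genes with both marks numbered 225, 186, 197 and 102 under the start site, 5-fold, 500-bp and 10% settings, against 434. Genes with neither numbered 10350 with the start site alone, 9764 protein-coding and 7068 passing filterByExpr, against 26416. The start-site setting covers only genes in the RefSeq promoter table.

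The median log2 CPM of H3K36me3-only minus H3K27me3-only genes was 5.86 over all genes and stayed positive in every alternative: 6.14 with a 5 kb window, 5.40 with the start site alone, 5.48 with 10% of the span, 4.98 over protein-coding genes and 3.91 with filterByExpr. Both minus H3K36me3-only was -0.30, and -0.42 (1 kb), -0.19 (5 kb), -0.62 (start site), -0.029 (5-fold), -0.21 (-log10 q of 5), -0.11 (500-bp peaks), -0.19 (500 bp of span), -0.37 (protein-coding) and -0.38 (filterByExpr); it reversed to 0.20 with 10% of the span, and the cause was not tested. H3K27me3-only minus neither was 3.34 over all genes, and 3.06 (5 kb), 1.20 (start site), 3.56 (500-bp peaks), 3.84 (10% of span), 5.23 (prior count 0.5) and 2.22 (prior count 5); it reversed to -0.11 over protein-coding genes and -1.66 with filterByExpr, which take out silent genes with neither mark. Over all genes rho with RNA was -0.13 for H3K27me3 length, -0.14 for H3K27me3 fold and 0.30 for H3K36me3 fold, against -0.18, -0.20 and 0.32 over protein-coding genes. The spread difference of 0.34 at 10 to 100 CPM was 0.28 to 0.30 with any WT library left out. Protein-coding CpG-rich shares were 72.7% (H3K27me3 alone), 85.1% (H3K36me3 alone) and 47.0% (neither).

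For KO against WT, edgeR called 0 genes in every setting, with each library left out, and with the replicate block (2365 genes at an unadjusted p under 0.05, against 3337 without it). DESeq2 called 1243, and 262 without the 3 high-collagen libraries. Same-numbered WT and KO1 libraries had deviations correlated at 0.069, -0.321 and -0.221, against -0.231 to 0.339 for the other pairs. With so few libraries this does not settle whether the replicate numbers pair the samples. RNA depth of 17.4 to 31.5 M limits weakly transcribed genes, and peak lists from 1 library each give no error for any class.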

Other observations

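The classes were spread unevenly over chromosomes. Among protein-coding genes of at least 10 CPM, 60.3% carried H3K36me3 in all, 79.1% on chromosome 19, 77.6% on chromosome 22, 74.2% on chromosome 16 and 72.7% on chromosome 17. The share was 43.5% on chromosome 4 and 28.0% (113 of 403) on X, the lowest of all. The median level of these genes was alike, at 44.6 CPM on X, 45.5 CPM on chromosome 4 and 43.2 CPM on chromosome 19. Their median span was not, at 31649 bp on X, 59169 bp on chromosome 4 and 19110 bp on chromosome 19. H3K27me3 lay at 6.2% of the 823 protein-coding genes on X, 12.8% on chromosomes 3 and 21 and 20.4% on chromosome 10, against 15.6% in all. SOX3 and L1CAM, on X, are among the 51 marked there.

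Genes that do not code for protein were seldom marked. Of 4137 lncRNAs 9.7% had H3K27me3 alone, 5.8% H3K36me3 alone and 0.3% both. The median of the H3K27me3-only lncRNAs was 0.0677 CPM and that of the H3K36me3-only lncRNAs 2.34 CPM, the same order as in protein-coding genes at lower CPM. Of 10033 pseudogenes 97.7% had neither mark.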
